A study of Citrus reticulata with 36 samples.

Results

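Within the integument, libraries that carry the same label differed from each other by a large shared swing, and c121462_g1 was the feature that defined it here. The members were selected on measured values. Deposited counts were scaled to CPM (the count scaled to a fixed library total), turned into log2(CPM + 1), and centred on the mean of each of the 6 integument groups. Features were kept with a mean of 5 CPM or more over the 18 integument libraries and a standard deviation of the centred values of 1 or more. Of the 128861 features in the table, 28599 passed the CPM minimum and 832 passed both. The 150 features with the highest Pearson r with c121462_g1, itself included, are the members.

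The libraries come from ovules of ponkan mandarin (Citrus reticulata), from which nucellus and integument were cut out by laser under the microscope at 18, 28 and 32 days after pollination (DAP). MT stands in the labels for the cultivar Huagan No.4 ponkan and WT for Egan No.1 ponkan, and neither abbreviation is spelled out. Each of the 12 groups of cultivar, tissue and stage held 3 libraries, 36 in all. The column names give the stage as a digit, which was read as 18, 28 and 32 DAP in the order of the design text, so every DAP below rests on that reading. The labels speak of biological replicates but give no plant, ovule or date for a replicate number, so p-values measure the spread between these libraries, and which library ran on which of the 2 sequencer models named is not given.

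The integument is the coat of maternal tissue around the nucellus and becomes the seed coat. The nucellus encloses the embryo sac, and in many citrus types embryos also form from nucellar cells. Both tissues are maternal and develop together, with cell division, cell expansion and the storage and breakdown of reserves changing as the seed grows. The feature identifiers carry no gene names, so no function or sequence can be given for any member, and no marker could be used to check the labelled tissue. In dissected tissue, fewer cells of a type and less RNA per cell cannot be told apart.

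Total counts ran from 12687779 to 20947644 per library. A count of 0 allows up to 3 counts, which is 0.143 to 0.236 CPM over the libraries, for counting error only. Features above 0 numbered 55947 to 69127. The 100 most abundant features of a library took 16.03% to 51.7% of its counts. WT nucellus at 28 DAP, replicate 1, had the highest of these shares, and its TMM factor, which scales for library composition, was 0.592, the lowest of the 36.

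The feature c121462_g1 is short, with a length of 370 bases implied by its deposited counts and FPKM (fragments scaled by feature length and library size). Its integument level ran from 0.0999 to 97.2 CPM, with a median of 10.8 CPM over the 18 libraries. In MT integument it stood at 11.4, 10.1 and 23.1 CPM in replicates 1, 2 and 3 of 18 DAP. At 28 DAP the MT integument libraries held 3.37, 0.649 and 0.306 CPM. At 32 DAP they held 31.4, 97.2 and 12.1 CPM. The MT libraries of 28 DAP thus lay below those of both other stages, without overlap.

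In WT integument c121462_g1 stood at 7.65, 3.82 and 86.1 CPM at 18 DAP. At 28 DAP the values were 95.3, 0.114 and 21.3 CPM, from 1996, 2 and 393 counts. At 32 DAP they were 13.3, 0.103 and 0.0999 CPM, the last pair from 2 counts each. At 18 and 32 DAP a single WT library stood far above the others, and at 28 DAP replicates 1 and 3 stood far above replicate 2. Of the summed squares of the centred values of c121462_g1 over the integument, WT at 28 DAP made up 45.7%, WT at 18 DAP 20.7% and WT at 32 DAP 19.4%, against 1.56% to 8.996% in the MT groups.

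In the nucellus c121462_g1 was lower, with a median of 0.653 CPM and a range from 0.0493 to 15.4 CPM over the 18 libraries. The MT values were 1.46, 5.27 and 0.474 CPM at 18 DAP, 0.188, 0.439 and 0.752 CPM at 28 DAP, and 3.84, 15.4 and 0.539 CPM at 32 DAP. The WT values were 0.554, 1.79 and 3.56 CPM at 18 DAP, 0.0493, 0.107 and 2.94 CPM at 28 DAP, and 1.26, 0.106 and 0.151 CPM at 32 DAP. The highest nucellus library, MT at 32 DAP replicate 2, carries the same number as the highest integument library. At this depth 5 of the nucellus values rest on 1 to 3 counts.

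**Figure D1:**
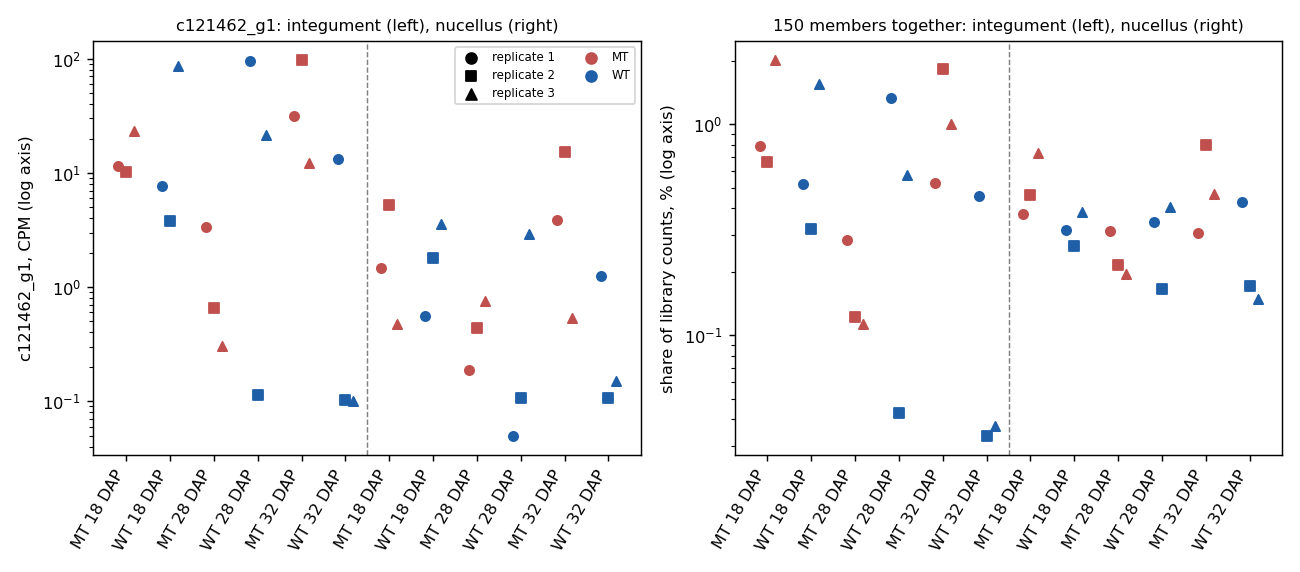
CPM of c121462_g1 (left) and the share of library counts taken by the 150 members together (right), both on log axes, for each of the 36 libraries; marker shape gives the replicate number and colour the cultivar. The spread inside groups is widest in WT integument at 28 DAP, where the members' share ran from 0.0428% to 1.34%.

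Together the members took a median of 0.527% of the counts of an integument library, from 0.0332% to 2.02% (n = 18). The highest shares were 2.02% in MT at 18 DAP replicate 3, 1.83% in MT at 32 DAP replicate 2, 1.56% in WT at 18 DAP replicate 3 and 1.34% in WT at 28 DAP replicate 1. The lowest were 0.0332% and 0.0370% in WT at 32 DAP replicates 2 and 3, and 0.0428% in WT at 28 DAP replicate 2. Inside a group the highest share was 31.3 times the lowest in WT at 28 DAP and 13.8 times in WT at 32 DAP. In the other 4 integument groups this ratio lay between 2.49 and 4.87. The libraries of WT at 32 DAP, replicates 2 and 3, had 70 and 74 members above 1 CPM, while 7 other integument libraries had all 150 above it.

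Over all integument libraries, levels ranged widely for each member that could be measured in every library. In the integument 102 members had over 3 counts in each of the 18 libraries, and their highest library lay 17.4 to 1202 times above their lowest, with a median of 101.5 times. The largest ratio was that of c109595_g1, named after its values were seen. Members with low counts in any library are left out of these ratios, and a large spread was required for membership. Over all 150 members, the highest integument library was MT at 32 DAP replicate 2 for 61, MT at 18 DAP replicate 3 for 34, WT at 18 DAP replicate 3 for 32 and WT at 28 DAP replicate 1 for 16. The lowest was WT at 32 DAP replicate 2 for 51, replicate 3 of the same group for 48, and WT at 28 DAP replicate 2 for 27.

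The integument r with c121462_g1 had a median of 0.865 over the members and was above 0.9 for 46 of them. These values chose the members and are given as a description. Behind c121462_g1 came c80207_g1 with an r of 0.983, c40952_g1 with 0.977, c20665_g1 with 0.973 and c113506_g1 with 0.972. In WT integument at 28 DAP, c80207_g1 held 43.9, 2.06 and 13.0 CPM in replicates 1, 2 and 3, and c40952_g1 held 65.6, 0.686 and 14.1 CPM. In the same libraries c20665_g1 held 38.7, 0.743 and 5.68 CPM, and c113506_g1 held 49.4, 1.2 and 18.7 CPM. All 4 thus had the same order of libraries as c121462_g1 in that group.

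At the limit of the list, c72060_g1 had an r of 0.664 at the last rank but 1 and c81249_g1 0.658 at rank 150. The next feature outside, c5801_g1, had 0.653, so the limit marks no gap. In all, 167 of the 832 features past both minimums had an r above 0.5, and 537 had an r below -0.5, which left 128 between. The features past both minimums thus fell mostly into an upper and a lower set, and the members took most of the upper one.

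The first principal component of the centred values held 79.4% of the members' variance in the integument and the second 6.67%. Of the other members, 80 had their highest library where c121462_g1 had it in all 6 integument groups, 50 in 5 groups, 18 in 4 and 1 in 3. Both results follow in part from choosing the members by r over these same libraries, and are given as a description. Features at the foot of the list spread most in another group. In MT integument at 32 DAP c81249_g1 held 95.8, 334 and 6 CPM in replicates 1, 2 and 3, and c72060_g1 held 47.5, 170 and 6.97 CPM. WT at 28 DAP replicate 1, where c121462_g1 was near its highest value, held 8.74 CPM of c81249_g1 and 11.3 CPM of c72060_g1.

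**Figure D2:**
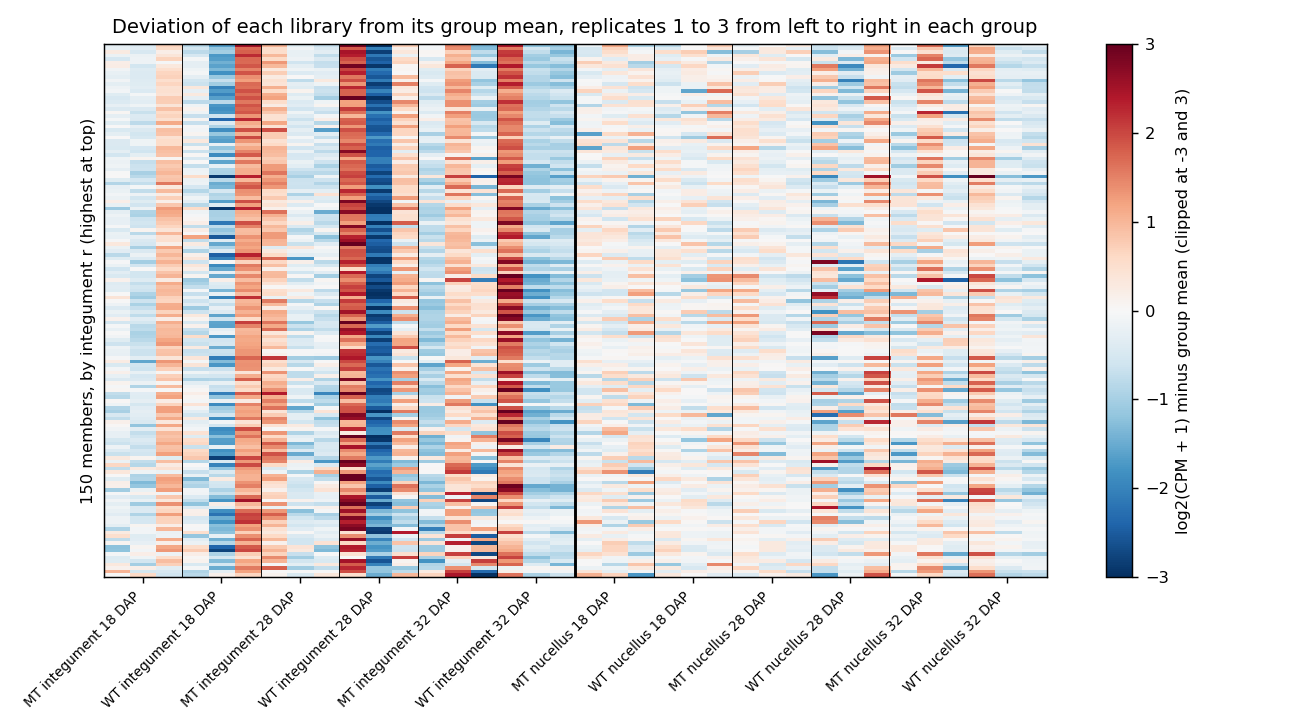
Centred log2(CPM + 1) of the 150 members (lines, ordered by integument r) in the 36 libraries (columns, grouped by label, with replicates 1 to 3 from left to right); red is above and blue below the group mean. The integument columns on the left, on which the members were chosen, are mostly of 1 colour, as in WT at 28 DAP replicates 1 and 2. The nucellus columns on the right are paler and more mixed.

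The most abundant member by CPM was c88753_g1, at 435 CPM on average over the integument libraries and 18.1 CPM over the nucellus libraries. Its integument values ran from 21.7 to 1826 CPM with a median of 318 CPM, and its nucellus values only from 7.49 to 32.9 CPM. The second, c83599_g1, ran from 8.51 to 2322 CPM in the integument (median 169 CPM) and from 84.8 to 612 CPM in the nucellus (median 191 CPM). Its nucellus range thus sat inside its integument range. The third, c77866_g1, ran from 13.7 to 1021 CPM in the integument and from 3.44 to 57.3 CPM in the nucellus. The fourth, c3243_g1, ran from 7.23 to 1046 CPM in the integument and from 3.02 to 485 CPM in the nucellus.

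Per length, c77866_g1 had the highest integument level of the members, with a mean of 365 FPKM, and the median member had 13.6 FPKM. In the nucellus c84171_g1 led with a mean of 922 FPKM, against a member median of 2.68 FPKM. The length implied by counts and FPKM had a median of 1699 bases over the members other than c121462_g1 and 1697 bases over the 682 other features past both minimums. Over the 28599 features with 5 CPM or more it was 2005 bases.

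The nucellus libraries were not used to choose the members. There, the r with c121462_g1 over the 18 centred values had a median of 0.293 for the other members and was above 0 for 121 of them (81.2%). It was above 0.5 for 50 (33.6%). Over the 682 other features past both minimums the median was -0.0738, with 32.3% above 0 and 7.185% above 0.5. Of these 682, 537 had an integument r below -0.5, so they are mostly the lower set and no neutral background. The nucellus r over all features was not computed. These correlations share the same libraries and are given without a test. With only 18 libraries and low counts of c121462_g1, a single value is loosely set.

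In the nucellus c121321_g1 followed c121462_g1 most closely among members with a mean of 1 CPM or more there, with an r of 0.873. It held 66.8, 361 and 38.4 CPM in MT at 32 DAP and 18.3, 16.4 and 98.5 CPM in WT at 28 DAP. Next were c8370_g1 with 0.834 and c25820_g1 with 0.815. All 3 shared with c121462_g1 a peak in MT nucellus at 32 DAP, replicate 2. At the other end, r was -0.426 for c111666_g1, -0.28 for c119514_g1 and -0.278 for c20849_g1. Nucellus levels of c20849_g1 ran from 1.47 to 8.43 CPM, with the lowest value in the library where c121462_g1 was highest, while its integument values of 5.43 to 215 CPM followed c121462_g1 with an r of 0.891.

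**Figure D3:**
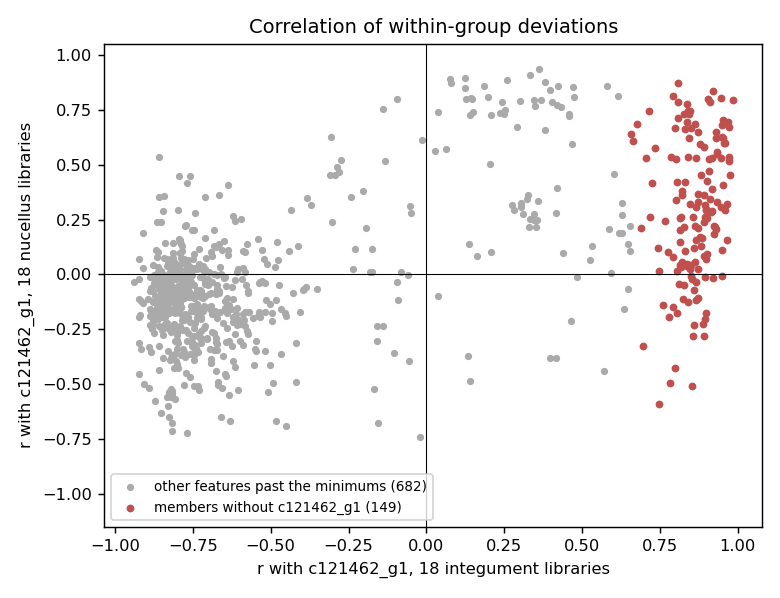
Pearson r with c121462_g1 over the 18 integument libraries (horizontal axis, used to choose the members) and over the 18 nucellus libraries (vertical axis, not used), for the other members (red) and the 682 other features past the minimums (grey). The members spread from -0.589 to 0.873 on the vertical axis, with 121 members above 0, and most grey points lie at the lower left.

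The swing was narrower in the nucellus. The standard deviation of the centred values had a median of 1.17 in the integument, where a minimum of 1 was required, and 0.575 in the nucellus, and it was lower in the nucellus for all but 1 of the members besides c121462_g1. Low levels compress log2(CPM + 1). Among the 71 members with a mean of 5 CPM or more in the nucellus, the medians were 1.215 and 0.748. In the 682 other features past both minimums the medians were 1.2 and 0.872, and 547 of them were lower in the nucellus too. A minimum set on the integument alone favours this direction, and its part was not tested. With no nucellus minimum in either set, the median fell less in these features than in the members. Their nucellus levels were not matched to those of the members or of the 71. The first component held 44.3% of the members' variance in the nucellus and the second 25.5%. The larger share of the first component in the integument comes from the libraries that chose the members. The tissues therefore cannot be compared on it.

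In nucellus libraries the members together took 0.148% to 0.8% of the counts, with a median of 0.331% (n = 18). It was highest in MT at 32 DAP replicate 2 and next in MT at 18 DAP replicate 3, at 0.735%. In the WT nucellus at 32 DAP it was 0.428%, 0.172% and 0.148% in replicates 1, 2 and 3, the same order of a high first and low later libraries as in WT integument of that stage. For 64 of the 150 members MT at 32 DAP replicate 2 was the highest nucellus library. For 41 the lowest was WT at 28 DAP replicate 1, the library in which 100 features took 51.7% of the counts, and the part of that composition in the low values was not tested.

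Nucellus and integument libraries of one cultivar and stage carry matching replicate numbers, but the labels do not say whether a number stands for a shared plant or ovule. Over the 18 number-matched pairs, the centred value of c121462_g1 in the nucellus correlated with that in the integument at a Pearson r of 0.391 (p = 0.181) and a Spearman rho of 0.371 (p = 0.224; both by a two-sided exact permutation test of the numbers within each cultivar and stage, 46656 arrangements, adjusted p = 0.224 over the 2 measures). Without the 2 integument libraries farthest from the median, WT at 28 DAP replicates 1 and 2, r was 0.53 and rho 0.509 over 16 pairs. With WT at 28 DAP replicate 1 left out of the integument or of the nucellus, r was 0.602 or 0.578 (exact permutation p = 0.0343 for each) and rho 0.566 or 0.547 (exact permutation p = 0.0797 or 0.0748). Both runs leave out the same pair, and their p-values are unadjusted. In the other 34 of the 36 runs without a single library, the p of the Pearson r was not under 0.05.

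The mean centred value of all 150 members had an r of 0.688 over the same 18 pairs, given as a description, and the same sign in both tissues in 14 of them. The 4 pairs of unlike sign were replicates 2 and 3 of MT at 18 DAP, replicate 1 of WT at 18 DAP and replicate 1 of WT at 28 DAP. Taken one by one, 122 of the other members (81.9%) had an r above 0 between same-numbered libraries, with a median of 0.406. For the 682 other features past both minimums the median was 0.827 and 97.95% lay above 0. The members' median thus lay below that of the other features, most of which swung the other way.

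**Figure D4:**
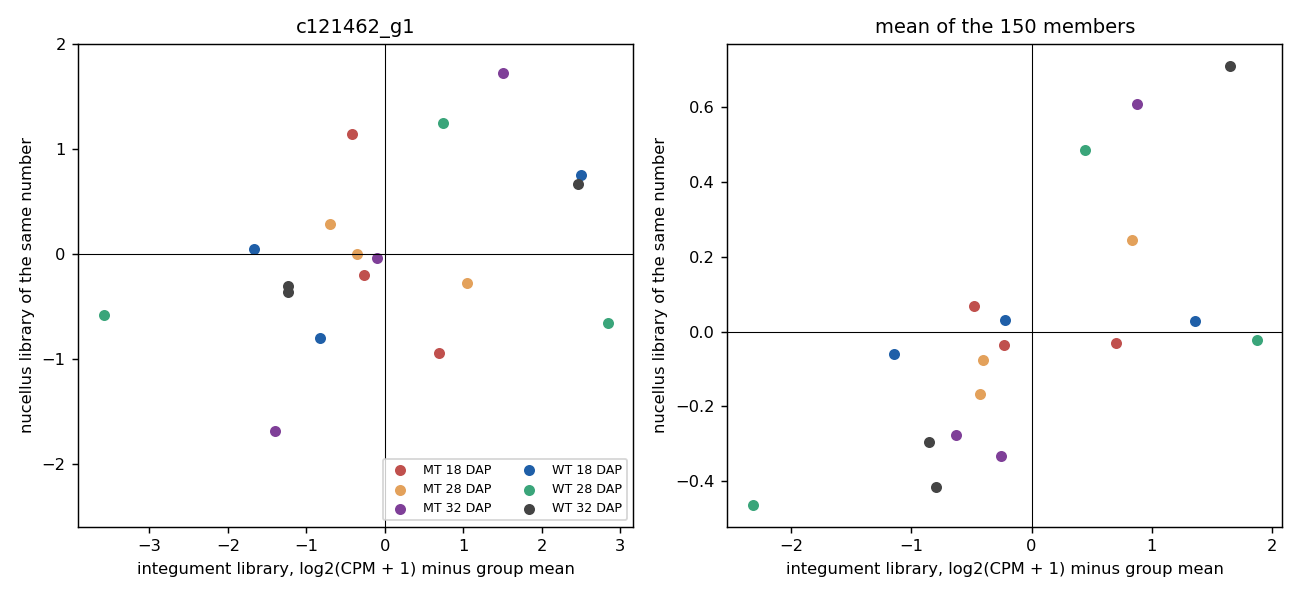
Centred log2(CPM + 1) of the integument library (horizontal axis) and of the nucellus library of the same number (vertical axis) for c121462_g1 (left) and for the mean of the 150 members (right), 18 pairs coloured by cultivar and stage. The pairs scatter around zero for c121462_g1, with r 0.391, and more of them lie in the lower left and upper right for the mean, with r 0.688.

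The opposite set was led by c44015_g1, whose integument r with c121462_g1 was -0.843. The 150 features that follow c44015_g1 by the same rule shared 0 features with the members. They took 0.0241% of counts in MT integument at 32 DAP replicate 2, 0.0321% in WT at 28 DAP replicate 1, 0.0353% in MT at 18 DAP replicate 3 and 0.0508% in WT at 18 DAP replicate 3, the same 4 libraries in which the members' share was highest. The remaining integument libraries lay between 0.195% and 0.724%. The same-numbered nucellus libraries were again the 4 lowest, at 0.0397%, 0.0519%, 0.0689% and 0.0599%, with the others from 0.201% to 0.511%. Between the mean centred values of both sets, r was -0.844 over the integument libraries and -0.298 over the nucellus libraries.

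Other properties of the libraries were set beside the swing, as a description. Over the 18 integument libraries, each centred in its group on a log2 scale, the members' mean value had an r of 0.0850 with total counts and -0.186 with the number of features above 0. It had 0.423 with the share of the 100 most abundant features and -0.261 with the mean length of the counted features. Over the nucellus libraries these were 0.0116, 0.324, 0.00323 and 0.276. The part of these properties in the swing was not tested.

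The tissue comparison asked which of the members differ between nucellus and integument on average, a difference between group means that the centred values did not contain. Of the 150 members, 104 were higher in the integument and 10 higher in the nucellus (edgeR quasi-likelihood test, Benjamini-Hochberg adjusted p under 0.05 over 57344 features). Over all tested features 18.9% were higher in the integument and 16.6% in the nucellus. The minimum of 5 CPM was set on integument libraries and favours features that are high there. The minimum SD was also required only of the integument. Group means in edgeR are fitted on the count scale, so that spread enters these fold changes too. The part of both minimums in these counts was not tested. Among the 682 other features past both minimums, 43.3% were higher in the integument and 3.52% in the nucellus. The median log2 fold change, nucellus minus integument, was -2.31 over the members, -0.44 over those 682 and 0.04 over all tested features.

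The largest difference was that of c64100_g1, with a mean of 17.4 ± 20.5 CPM over integument and 0.114 ± 0.0967 CPM over nucellus libraries (SD, n = 18 each). Its log2 fold change was -6.45 ± 0.62 (SE; edgeR, adjusted p = 2.57e-09). Next came c30914_g1, with 0.084 ± 0.116 CPM against 7.1 ± 10.6 CPM which differ by -6.08 ± 0.83 on the log2 scale (edgeR, adjusted p = 1.61e-06). Both had integument libraries as low as the nucellus, at 0.0499 and 0 CPM, so the ranges of the tissues overlapped. Both passed the CPM minimum through the integument alone, the tissue where they are high. Their direction is thus partly set by the rule, and their p-values are no independent support for it.

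In the other direction c62742_g1 had a mean of 29.4 ± 29.4 CPM over integument and 224 ± 87.2 CPM over nucellus libraries, which differ by 3.4 ± 0.36 on the log2 scale (SE; edgeR, adjusted p = 1.4e-08). Its lowest nucellus library held 90.1 CPM and its highest integument library 88.1 CPM, and it was the only member whose tissues did not overlap. The wide integument spread required of members makes overlap likely, and the same count over all features was not made. For c84171_g1 the means were 239.6 ± 271 CPM over integument and 1065 ± 673 CPM over nucellus libraries, a difference of 2.54 ± 0.4 on that scale (edgeR, adjusted p = 1.05e-05). In the integument both followed the swing. Over all integument libraries c62742_g1 ran from 1.3 to 88.1 CPM and c84171_g1 from 7.49 to 1123 CPM.

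The feature c121462_g1 itself had a mean of 23.2 ± 33.3 CPM over integument and 2.16 ± 3.64 CPM over nucellus libraries (SD, n = 18 each). It was lower in the nucellus by a log2 difference of -3.34 ± 0.72 (SE; edgeR, adjusted p = 0.000512). Leaving out WT integument at 32 DAP replicate 1 ended the call, at -2.44 (edgeR, adjusted p = 0.065). For c121462_g1 too, the CPM minimum was set on the integument alone.

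The cultivar comparison asked whether MT and WT differ within a tissue and stage. The members were required to vary between libraries of one group, which raises their error, and their median biological coefficient of variation was 0.888 against 0.399 over all tested features. They were also chosen for moving together, so the members are not independent of each other. Group means in edgeR are fitted on the count scale, so the spread inside groups, which the rule used, enters these fold changes. In the integument at 32 DAP, 21 of the 150 members were called and all were higher in MT (edgeR), while 1.02% of all features were called in either direction. The median log2 fold change of MT minus WT over the members was 3.04, and 147 of the 150 were above 0; over all features the median was -0.0019.

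In that comparison c72060_g1 had the largest log2 fold change, 10.1 ± 1.71 (SE; edgeR, adjusted p = 0.00966). It held 47.5, 170 and 6.97 CPM in the MT replicates and 0.205, 0 and 0 CPM in the WT replicates, so the size of the change is poorly set. The second, c128405_g1, held 2.58, 21.9 and 7.15 CPM in MT and 0.0512, 0.0513 and 0 CPM in WT, with 8.17 ± 2.06 (edgeR, adjusted p = 0.04998). The WT libraries hold 4 counts or fewer of c72060_g1 and 1 count or none of c128405_g1. The call of c128405_g1 is marginal, with an adjusted p of 0.0507 to 0.316 without any 1 of 27 of the 36 libraries (edgeR), and it was lost with limma on log2(FPKM + 1), at 2.09 (adjusted p = 0.105). That of c72060_g1 was lost without MT replicate 2 or WT replicate 2 or 3 (edgeR, adjusted p = 0.0813, 0.137 and 0.147). All MT libraries lay above all WT libraries for 80 of the 150 members and for 2367 of the 28599 features with 5 CPM or more. The feature c121462_g1 was not among them, since its lowest MT library, at 12.1 CPM, lay below the highest WT library, at 13.3 CPM. Its log2 fold change was 3.53 ± 1.68 (edgeR, adjusted p = 0.371). It was 8.95 without WT replicate 1 and 2.31 without MT replicate 2 of that stage (edgeR, adjusted p = 0.0741 and 0.835).

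These calls rested on single libraries. Without MT integument at 32 DAP replicate 2, or without WT replicate 2 or replicate 3 of that stage, 0 members were called (edgeR, 21 with all libraries). Without MT replicate 1 the count was 40, and without WT replicate 1 it was 66. Leaving out a library of another integument group gave 32 (WT at 18 DAP replicate 3), 40 (WT at 28 DAP replicate 1) and 43 (WT at 28 DAP replicate 2). With the 18 integument libraries modelled alone it was 0. The share of all features called in these runs is not given, so no change particular to the members can be read from them.

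At 28 DAP the members lay the other way in the integument. The median log2 fold change of MT minus WT was -2.38, and 0 of the 150 members were above 0, but 0 were called (edgeR; DESeq2 called 1), as were 0% of all features. At an unadjusted p under 0.05 edgeR gave 84 members (56% against 6.7% of all features), and the count was 43 with the integument modelled alone and 17 and 9 with limma on log2(FPKM + 1) and log2(FPKM + 0.1). For the last 3 counts the share of all features is not given. All MT libraries lay below all WT libraries for only 2 of the 150 members, and for 1546 of the 28599 features with 5 CPM or more. For c121462_g1 MT minus WT was -4.96 ± 1.83 on the log2 scale (edgeR, adjusted p = 0.727). The WT libraries of that stage spanned the widest swing of all groups, from 0.0428% to 1.34% of counts in the members. That spread helped to choose the members and enters the edgeR group means. Its part in these fold changes was not tested. The MT libraries held 0.283%, 0.122% and 0.114%, inside the WT range. At 18 DAP the median was 0.17 and 0 members were called (edgeR; 0 by DESeq2), against 0.00698% of all features. At an unadjusted p under 0.05 there were 0 members and 8.88% of all features. All MT libraries lay above all WT libraries for 3 members and 2698 of the 28599 features, and below for 0 members and 1769 features.

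In the nucellus the members' medians had the same signs as in the integument. They were 0.39 at 18 DAP, -0.64 at 28 DAP and 1.3 at 32 DAP. No member was called at any of these stages (edgeR), where 0.00174%, 0% and 0.0541% of all features were called. At an unadjusted p under 0.05 there were 1, 7 and 39 members, or 0.667%, 4.67% and 26%, against 7.51%, 12.4% and 9.53% of all features. The members' share was thus below that of all features at 18 and 28 DAP and above it at 32 DAP. DESeq2 called 0, 0 and 7. At 32 DAP the count was 1 without MT nucellus replicate 1 and 2 without WT nucellus at 28 DAP replicate 1. For these counts and those of DESeq2 the share of all features is not given. All MT libraries lay above all WT libraries for 52 members at 32 DAP, and for 2180 of the 28599 features with 5 CPM or more. At 18 DAP this held for 25 members, with 2 the other way, against 2955 and 827 of those features. At 28 DAP it held for 9, with 1 the other way, although the median there was below 0. Of those features, 3737 had all MT above and 537 all MT below at 28 DAP. Same-numbered libraries of both tissues may share a source, so the tissues are not independent of each other here.

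**Figure D5:**
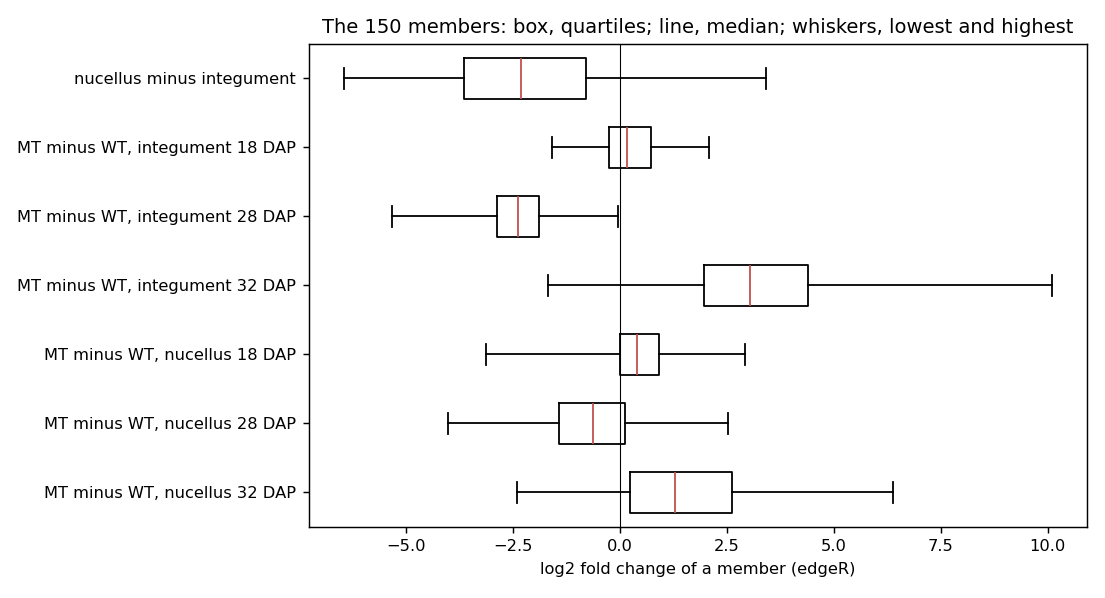
Log2 fold changes (edgeR) of the 150 members between nucellus and integument and between MT and WT in each tissue and stage; boxes span the quartiles, the line is the median and whiskers reach the lowest and highest member. The integument boxes of 28 and 32 DAP lie on opposite sides of 0, with medians of -2.38 and 3.04.

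Whether the cultivar difference itself changed from 28 to 32 DAP was tested as a difference of differences, a comparison added after the values of both stages had been seen. In the integument 48 of the 150 members were called, all with a more positive MT minus WT difference at 32 DAP (edgeR), against 1.41% of all features in either direction. The median change was 5.33 over the members and -0.01 over all features. The spread inside groups, which the rule used, enters this change too, and its part was not tested. For c121462_g1 it was 8.49 ± 2.49 (edgeR, adjusted p = 0.086). The largest was that of c72060_g1, 15.5 ± 2.28 (edgeR, adjusted p = 0.00217), followed by c128405_g1 with 12.1 ± 2.6 (edgeR, adjusted p = 0.0183). The call of c128405_g1 was lost without any 1 of 6 integument libraries: MT at 28 DAP replicate 2 or 3, MT at 32 DAP replicate 2, WT at 28 DAP replicate 1, and WT at 32 DAP replicate 2 or 3. The adjusted p was then 0.0701 to 0.28 (edgeR), and the change was 8.29 without WT at 28 DAP replicate 1. It was also lost with limma on log2(FPKM + 1) and log2(FPKM + 0.1), at 2.95 and 6.54 (adjusted p = 0.139 and 0.0558), and with the integument modelled alone (edgeR, adjusted p = 0.134). That last setting ended the call of c72060_g1 too (edgeR, adjusted p = 0.0974).

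This count also rested on single integument libraries. It was 2 without WT at 28 DAP replicate 1, and 9, 10 and 11 without WT at 32 DAP replicate 2, WT at 32 DAP replicate 3 and MT at 32 DAP replicate 2. It was 10 without MT at 28 DAP replicate 2 or replicate 3. It was 74 without MT at 32 DAP replicate 1, 105 without WT at 28 DAP replicate 2 and 125 without WT at 32 DAP replicate 1. It was 0 with the integument modelled alone. In the nucellus the median change was 1.95 and 0 members were called (edgeR), against 0.00523% of all features. Unadjusted, p was under 0.05 for 30 members (20%) and 14% of all features. DESeq2 called 11 members, and 838 higher and 90 lower among all 57344 features. There the count was 1 without MT at 28 DAP replicate 1, 2 without MT at 32 DAP replicate 1, 5 without WT at 28 DAP replicate 2 and 2 without WT at 28 DAP replicate 3. The counts without a library or with the integument alone stand without the share of all features in the same runs.

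The stage comparison asked what changed with development, as the mean over both cultivars. In the integument from 18 to 28 DAP the members' median log2 fold change was -1.37 and 6 of the 150 were above 0, but 0 were called (edgeR; DESeq2 called 1), as were 0% of all features. Before adjustment 58 members (38.7%) and 9.58% of all features had a p under 0.05. Without WT integument at 28 DAP replicate 1, the highest member library of its group, 21 members were called (edgeR). The share of all features called in that run is not given. From 28 to 32 DAP the median was 0.06 and 0 were called (edgeR; DESeq2 called 2), with 0% of all features. Unadjusted, 9 members (6%) and 4.92% of all features had a p under 0.05.

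In the nucellus the medians were -0.47 from 18 to 28 DAP and 0.31 from 28 to 32 DAP. No member was called in either step (edgeR; DESeq2 called 0 and 0), where 0.131% and 0% of all features were called. At an unadjusted p under 0.05 there were 6 and 10 members (4% and 6.67%), below the 13.8% and 9.17% of all features.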

How the data were processed

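Read counts and FPKM of the same features were deposited by the authors, each as a table of the whole series. Per the submitters' processing notes cutadapt, Bowtie2, RSEM and DESeq were used, with no versions, and no source used here gives the reference. The deposited counts are whole numbers throughout, and they were taken as RSEM estimated counts rounded by the authors, which no source records. The deposited FPKM values served for implied lengths and alternatives. Per the labels' protocols, RNA of each capture was amplified from random primers (SPIA), and the part of amplification in the spread between libraries was not tested. RSEM can split reads between similar sequences.

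CPM used column sums. The members, lists and tests were chosen with earlier results of these data known. Tests used edgeR 4.0.16 in R 4.3.3 on 57344 features kept by filterByExpr, TMM scaling, 12 group means over 36 libraries and robust quasi-likelihood, with Benjamini-Hochberg adjustment; all 150 members passed that filter. Alternatives used DESeq2 1.42.0 and limma 3.58.1; scripts were tested on simulated data. Named were c121462_g1, the 4 next by r, those at the rank limit, the 4 most abundant, the 3 highest and 3 lowest by nucellus r, and at most 2 called per direction and comparison.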

Additional observations from a re-analysis of the deposited data

Results flagged for a closer look

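For 7 of the named members the change of the MT minus WT difference in the integument from 28 to 32 DAP passed the test of that change (edgeR, adjusted over all 57344 features), a comparison added after the values had been seen. On the log2 scale it was 6.67 for c83599_g1, 6.05 for c62742_g1, 7.1 for c121321_g1, 11.3 for c25820_g1, 12.1 for c128405_g1, 9.08 for c64100_g1 and 15.5 for c72060_g1. All 7 calls were lost with the integument libraries modelled alone. Leaving out WT integument at 28 DAP replicate 1 ended every one of them but that of c72060_g1, with changes of 5.66, 4.6, 6.53, 7.53, 8.29 and 6.41 in the order above (edgeR, adjusted p from 0.0801 to 0.304). With limma on log2(FPKM + 1) and log2(FPKM + 0.1), c121321_g1 (5.09 and 5.72), c25820_g1 (4.01 and 7.12) and c128405_g1 (2.95 and 6.54) were not called.

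On the log2(CPM + 1) scale, c72060_g1 lay lower in every MT than in every WT integument library at 28 DAP, by a mean difference of -1.52, and higher in every MT library at 32 DAP, by 5.25. Its counts at 28 DAP were low, at 2, 2 and 2 in MT and 236, 7 and 16 in WT replicates 1, 2 and 3. At 32 DAP the WT replicates held 4, 0 and 0 counts. For c25820_g1 every nucellus library of MT lay below every integument library at 18 DAP, with a mean difference of -1.01, and above at 28 DAP, with 0.396. These last opposite directions, between MT at 18 and 28 DAP, were not tested. The values of c25820_g1 at 28 DAP are low, at 0.153 to 0.975 CPM over both tissues.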

How the results depend on the processing

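Counts of members called between tissues stayed within 1.5 times of 10 and 104 in every alternative run. In the integument at 32 DAP the count of 21 between cultivars was 5 with no filter on low counts, 51 and 49 with limma on log2(FPKM + 1) and log2(FPKM + 0.1), 0 with the tissue's libraries alone and 65 with DESeq2, and 0 to 66 when single libraries were left out. The added change from 28 to 32 DAP gave 48, then 23, 30, 22, 0 and 99 under those settings, and 2 to 125 with single libraries left out; in the nucellus DESeq2 gave 11 and leaving out a library 0 to 5. In the nucellus at 32 DAP the count of 0 became 2 with limma at either pseudocount and 7 with DESeq2, and 0 to 2 without single libraries. In the integument at 28 DAP DESeq2 called 1. From 18 to 28 DAP limma called 12 and 3, DESeq2 1, and leaving out a library gave 0 to 21; from 28 to 32 DAP DESeq2 called 2. These counts, here and above, mostly stand without the share of all features called under the same setting. A change particular to the members cannot be read from them. The causes were not tested.

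Of the 150 members, 41 were chosen with no minimum SD and 71 without the 3 WT integument libraries of 28 DAP (added after seeing the data); leaving out single libraries kept 73 to 146, with 73 and 93 for WT integument at 28 DAP replicates 2 and 1. The same-number r of c121462_g1 ranged from 0.277 to 0.602 without single libraries. The nucellus median r ranged from 0.193 to 0.363.

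With the replicate number as a block, 13 and 102 members were called between tissues, 30 between cultivars in the integument at 32 DAP and 48 for the added change. Deviations of same-numbered libraries correlated at 0.0525 to 0.482 over 18 pairs, 17 above 0.1, and every library correlated best with its own number, a hint from the data that the labels do not state. Low counts of c121462_g1 limit its nucellus values.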
